A study of Homo sapiens with 2 samples.

Results

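GSK_J1 and GSK_J4_HCl are a pair of related small molecules that differ by 1 named change: GSK_J1 is a free carboxylic acid and GSK_J4 is its ethyl ester, here supplied as the hydrochloride. They were found by compound name in the deposited well annotation and fill 4 of 192 wells, 1 well of each compound on each of 2 plates. All wells held K562, an established cell line grown from a human chronic myeloid leukaemia and carrying red cell features, exposed to a compound for 6 h and read by MAC-seq, which sequences barcoded 3′ ends of polyadenylated RNA from every well of a plate as 1 pooled library. The compounds were compared with each other, with a 16-well reference and with 24 wells of DMSO, the solvent control. The reference joins 8 treatments of 2 wells each: ethanol (EtOH), the antibiotic Ofloxacin, the DOT1L inhibitors Pinometostat and SGC_0946, the PRMT5 inhibitors EPZ015666 and GSK591, and EED226 and GSK126, which inhibit the Polycomb methyltransferase complex. The reference therefore holds chromatin inhibitors of other targets and is not an untreated group. The wells of a treatment are technical duplicates of 1 experiment, so the p-values speak only to how far wells differ, not to repeat cultures. The sources used here give no dose, so it is not known whether acid and ester were added at the same concentration, and the differences below are between the wells as they were treated.

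Both compounds are known as inhibitors of KDM6A (UTX) and KDM6B (JMJD3). These enzymes of the JmjC family use iron, oxygen and 2-oxoglutarate to remove methyl groups from lysine 27 of histone H3, a mark of silenced genes that EZH2 in Polycomb repressive complex 2 lays down. The charged acid binds the purified enzymes but passes poorly through cell membranes, and the ester is used as its cell-permeable form, from which esterases inside the cell release the acid. In erythroid and other leukaemia cells the methyl mark and its removal take part in switching lineage genes on and off.

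Depth differed between the groups and with the place on the plate. GSK_J4_HCl had 403137 counts to human genes on plate 1 and 424565 on plate 2, and GSK_J1 had 511559 and 422121. The reference wells had 462597 to 1238536 (median 872990) and all wells 173553 to 1906446. With wells numbered along the rows, which the annotation does not state, both compounds lay in plate column 2, where the median of 489908 counts was below the 829596 of columns 3 to 12, and no reference well lay there. By the same numbering 8 of the 24 DMSO wells lay in plate column 1, where the median was 265248 counts. The K562 markers GATA1, HBG1, HBG2, TFRC, KLF1 and TAL1 were all detected. Of 12 markers of other blood, epithelial and stromal cells, 4 were at 0 in all these wells (CD3E, MS4A1, MPO and ELANE). The sum of the 12, at 231 to 253 CPM (counts per well scaled to a common library size) in the compound wells, lay inside the reference range of 182 to 278 and came mostly from KRT19 and EPCAM.

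The ester and the acid differed in the metallothioneins, small cysteine-rich proteins that bind zinc and copper and buffer the cell against excess metal. Of 10312 genes tested, 3 (0.0291%) differed between GSK_J4_HCl and GSK_J1 by edgeR's quasi-likelihood test with Benjamini-Hochberg adjustment, all higher with the ester: MT1G, MT2A and MT1X. At an unadjusted p under 0.05 there were 548 genes. Without any difference a share of about 0.05 of the 10312 genes would pass, so such counts, here and below, lie near the background. With limma-voom 2 genes were called, and with DESeq2 1.

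MT1G was read 19 times in each GSK_J4_HCl well, and 2 times and 0 times in the GSK_J1 wells. Scaled to depth, these were 45.2 and 41.6 CPM with the ester and 3.75 and 0 CPM with the acid, beside 0 to 5.01 CPM (median 1.64) in the reference and 0 to 5.87 CPM in DMSO. The ester wells stood clear of every well of the acid, the reference and DMSO, and the acid wells lay inside the range of the controls. The log2 difference of ester minus acid was 4.28 (SE 0.71, 95% interval 2.88 to 5.68, edgeR adjusted p = 2.84e-05). With DESeq2 the MT1G difference of 4.41 (SE 1.18) was not called (adjusted p = 0.503).

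MT2A, the most widely expressed member of the family, gave 69.1 and 74.4 CPM in the ester wells and 11.3 and 6.67 CPM in the acid wells. The reference ranged from 4.18 to 23.3 CPM (median 7.36). Ester and acid did not overlap, and the acid lay inside the reference range. The log2 difference of ester minus acid was 2.94 (SE 0.47, 95% interval 2.02 to 3.86, edgeR adjusted p = 2.57e-05).

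MT1X gave 52.4 and 48.2 CPM with the ester and 11.3 and 8.9 CPM with the acid, and 0 to 19.7 CPM (median 10.2) in the reference. The same order held: both ester wells above all 16 reference wells, both acid wells among them. The log2 difference was 2.28 (SE 0.49, 95% interval 1.32 to 3.25, edgeR adjusted p = 0.0217). This call was lost with limma-voom (adjusted p = 0.357), with DESeq2 (0.241) and without any 1 of the 4 wells (0.163 to 0.724), while the log2 difference stayed between 2.15 and 2.68 over all alternatives tried. Without the GSK_J1 well of plate 2, in which MT1G was at 0, no gene was called by edgeR, with MT2A at a log2 difference of 2.56 (edgeR adjusted p = 0.0551) and MT1G at 3.25 (0.182).

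These are low counts. The plates gave 2.13 and 2.16 reads per unique molecular identifier in the ester wells. Between those 2 wells the chi-square per degree of freedom was 1.12 over 7125 genes. Between the acid wells, at 1.93 and 1.83 reads per identifier, the same value was 1.62 over 7511 genes. Uncollapsed reads would scatter more than the ester wells did, but the acid wells did scatter more. Whether the counts, called reads throughout, already stand for molecules is therefore not settled. The family members are also near-identical copies, and how reads shared between copies were assigned is not given in the sources used here, so the sum over the family is the firmer value. Over the 11 metallothionein genes in the tables it was 183 and 175 CPM with the ester (77 and 80 reads), 26.3 and 15.6 CPM with the acid (14 and 7 reads), 11.7 to 40.2 CPM (median 20.2) in the reference and 10.2 to 37.2 CPM in DMSO.

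**Figure D1:**
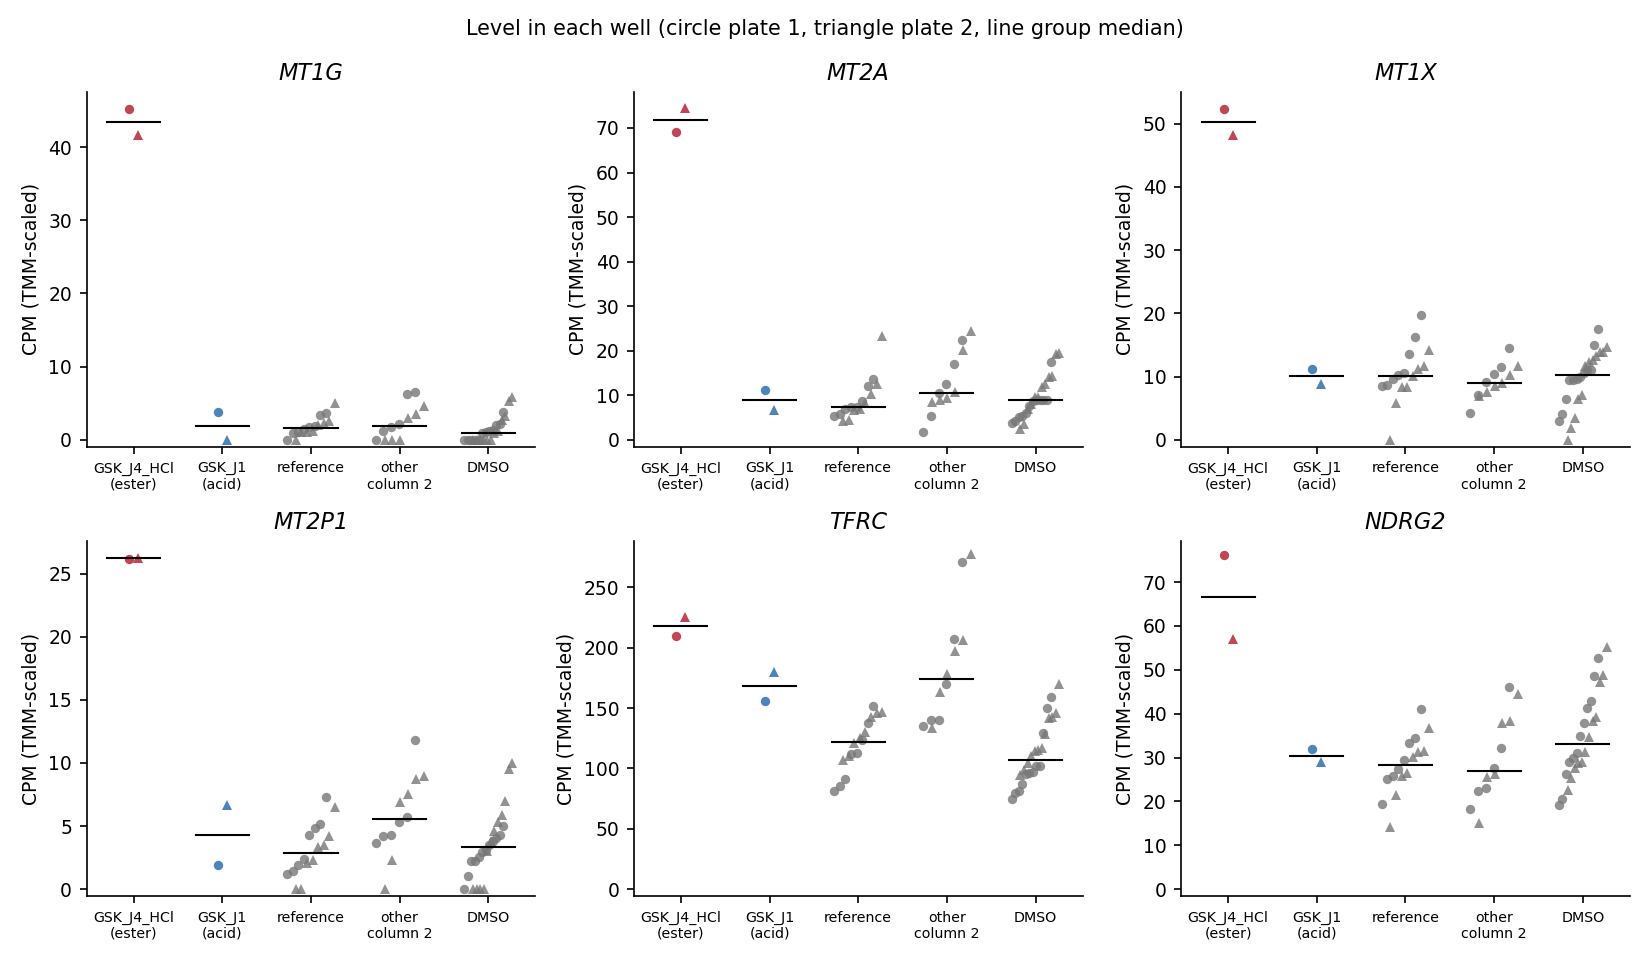
Level of 6 genes in every well of the groups compared, in TMM-scaled CPM (y axis, linear, from 0), with the group on the x axis; circles are plate 1, triangles plate 2 and lines the group medians, and wells are spread sideways by value only to be seen. The 2 GSK_J4_HCl wells lie at 41.6 and 45.2 CPM for MT1G, above all other wells plotted, while for TFRC other treatments of plate column 2 reach 278 CPM.

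Metallothionein promoters are known for short metal response elements, which the zinc-sensing factor MTF1 binds. The stretch of 250 bases upstream of the start is shown for MT2A and MT1X, since these are the called members found in the RefSeq promoter table used (assembly GRCh38.p14); MT1G was not in it. Capitals mark each match to TGCGCNC or TGCACNC on either strand, with 7 matches before MT2A (chr16:56608334-56608583, plus strand) and 4 before MT1X (chr16:56682220-56682469, plus strand).
MT2A: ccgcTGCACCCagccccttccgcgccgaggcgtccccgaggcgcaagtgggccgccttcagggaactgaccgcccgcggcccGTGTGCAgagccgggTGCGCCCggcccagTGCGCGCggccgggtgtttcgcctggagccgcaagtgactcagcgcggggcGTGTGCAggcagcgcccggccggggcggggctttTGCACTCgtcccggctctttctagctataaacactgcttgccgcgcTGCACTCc
MT1X: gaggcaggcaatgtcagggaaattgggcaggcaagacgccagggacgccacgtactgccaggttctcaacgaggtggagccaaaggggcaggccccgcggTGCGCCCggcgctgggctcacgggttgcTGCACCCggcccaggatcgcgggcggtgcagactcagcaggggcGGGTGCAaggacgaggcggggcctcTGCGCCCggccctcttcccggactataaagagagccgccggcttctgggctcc
Of all 35116 promoters in the table, 24.8% held at least 1 match and 0.37% held 4 or more in the same length. The table held 5 metallothionein promoters (MT4, MT2A, MT1B, MT1H and MT1X), with 3 to 8 matches each and 4 or more in 3 of them. MT4, MT1B and MT1H, which are not among the called genes, thus carry matches too. A match describes the letters only and is neither a measured binding site nor a cause.

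Against the reference, GSK_J4_HCl raised the same family. In this comparison 67 genes (0.65% of those tested) were called, 44 higher and 23 lower. MT1G was 4.55 higher on the log2 scale (SE 0.42, edgeR adjusted p = 9.04e-19), MT2A 2.93 (SE 0.29, 2.58e-15) and MT1X 2.22 (SE 0.32, 2.31e-07). MT2P1, a processed copy of MT2A, had 26.2 and 26.3 CPM in the ester wells against 0 to 7.27 CPM in the reference, a log2 difference of 2.97 (SE 0.48, edgeR adjusted p = 7e-06). It was named after its values were seen and may hold reads of MT2A. Each of these 4 genes was called against the reference and against DMSO under every alternative that gave it an adjusted p, left-out wells included. DESeq2 gave none for any of the 4 against the reference, and none for MT1G and MT2P1 against DMSO.

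The other metallothioneins were too low to test. MT1F had 2 and 3 reads in the ester wells, 0 in the acid wells and 4 reads over the 16 reference wells. MT1E had 2 and 1 reads, MT1H had 3 and 1, and neither had a read in the acid or reference wells. MT1A, MT1M and MT3 were at 0 in all 20 of these wells. MTF1 itself had 3 and 1 reads with the ester and 0 and 2 with the acid. SLC30A1, the zinc exporter that MTF1 also controls, gave 23.8 and 17.5 CPM with the ester, 9.38 and 8.9 CPM with the acid and 6.36 to 18.4 CPM in the reference. The ester's log2 difference from the reference was 1.0 (SE 0.39, 95% interval 0.23 to 1.78) and did not pass the test (edgeR adjusted p = 0.2). The zinc importer SLC39A10 was at 0.29 (SE 0.54) and did not pass either. A zinc importer outside the list, SLC39A4, named after its values were seen, gave 267 and 313 CPM with the ester, 231 and 242 with the acid and 154 to 223 in the reference. The ester was 0.63 above the reference in it (SE 0.13, edgeR adjusted p = 0.00155), but the call was lost against the other column 2 treatments (0.26, SE 0.13, adjusted p = 0.884). In the list of metallothioneins and zinc response genes, 5 of 12 genes were tested. For the ester 3 were higher (MT1G, MT2A and MT1X) and none was lower. The ester's list median of 2.22, against -0.004 over all genes, is the MT1X value and restates these calls. Only 1 of the 188 other wells reached the lower ester value of MT1G. The filter on low counts may therefore have kept MT1G only through the ester wells. For the acid 0 of the 5 was called and the median was -0.01.

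GSK_J1 showed no such change. Its log2 difference from the reference was 0.27 for MT1G (95% interval -1.84 to 2.38), -0.01 for MT2A (-1.07 to 1.05) and -0.07 for MT1X (-1.07 to 0.93), and none was called in any alternative tried. These intervals leave room for a change of up to about 1 log2 unit in MT2A and MT1X and exclude the size seen with the ester.

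Across the 75 treatments, DMSO among them, the summed metallothionein level of GSK_J4_HCl ranked 2 and that of GSK_J1 ranked 54. Phendione, a metal-binding compound, ranked 1, but its wells differed widely, at 94.3 and 323 CPM, while those of the ester were at 175 and 183 CPM. By MT1G alone the ester ranked 1, and by MT2A and MT1X it ranked 2. The ranks describe these wells, since doses are not given.

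**Figure D2:**
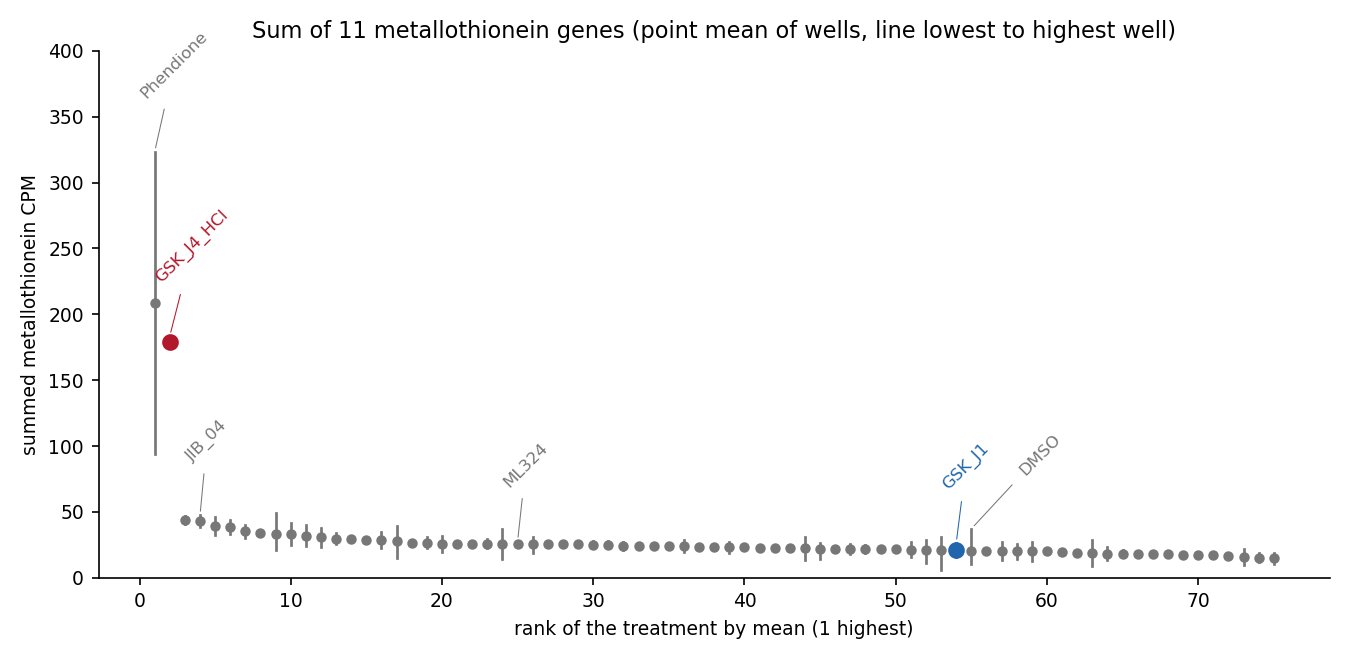
Sum of 11 metallothionein genes in CPM (y axis, linear, from 0) for each of 75 treatments ranked by mean (x axis); points are means over the wells of a treatment and lines run from its lowest to its highest well. GSK_J4_HCl (red) at 175 to 183 CPM and Phendione at 94.3 to 323 CPM stand apart from all others, and GSK_J1 (blue) lies at 15.6 to 26.3 CPM among the rest.

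The comparison with the reference also picked up genes that move with plate column 2. Each of the 8 reference treatments, tested the same way against the other 7, gave 0 to 11 genes (median 0): 11 for Pinometostat (0.107%), 2 each for EtOH and GSK591 (0.0194%) and 0 (0%) for the other 5. The other 6 treatments of column 2 gave a median of 183.5 genes against the reference: ML324 71 (0.689%), UNC0631 141 (1.37%), GSK_LSD1_2HCl 153 (1.48%), SP2509 214 (2.08%), BRD4770 240 (2.33%) and JIB_04 292 (2.83%). Beside these, the 67 of the ester lay below their range and the 340 of the acid above it. An alternative added after seeing the data took these 12 wells as the reference. GSK_J4_HCl then differed in 6 genes (0.0582%): MT1G by 4.01 on the log2 scale (SE 0.43, edgeR adjusted p = 4.87e-14), MT2A by 2.47 (SE 0.3, 4.29e-10), MT1X by 2.38 (SE 0.34, 1.48e-07), MT2P1 by 2.05 (SE 0.46, 0.0227), NDRG2 by 1.18 (SE 0.26, 0.0187) and CACUL1, which was lower (adjusted p = 0.0187). All 6 were among the 67. GSK_J1 differed from the same wells in 0 genes (0%) by edgeR, with 530 at an unadjusted p under 0.05. Whether the column holds compounds with shared effects or a position effect cannot be told apart, because each compound had 1 position.

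**Figure D3:**
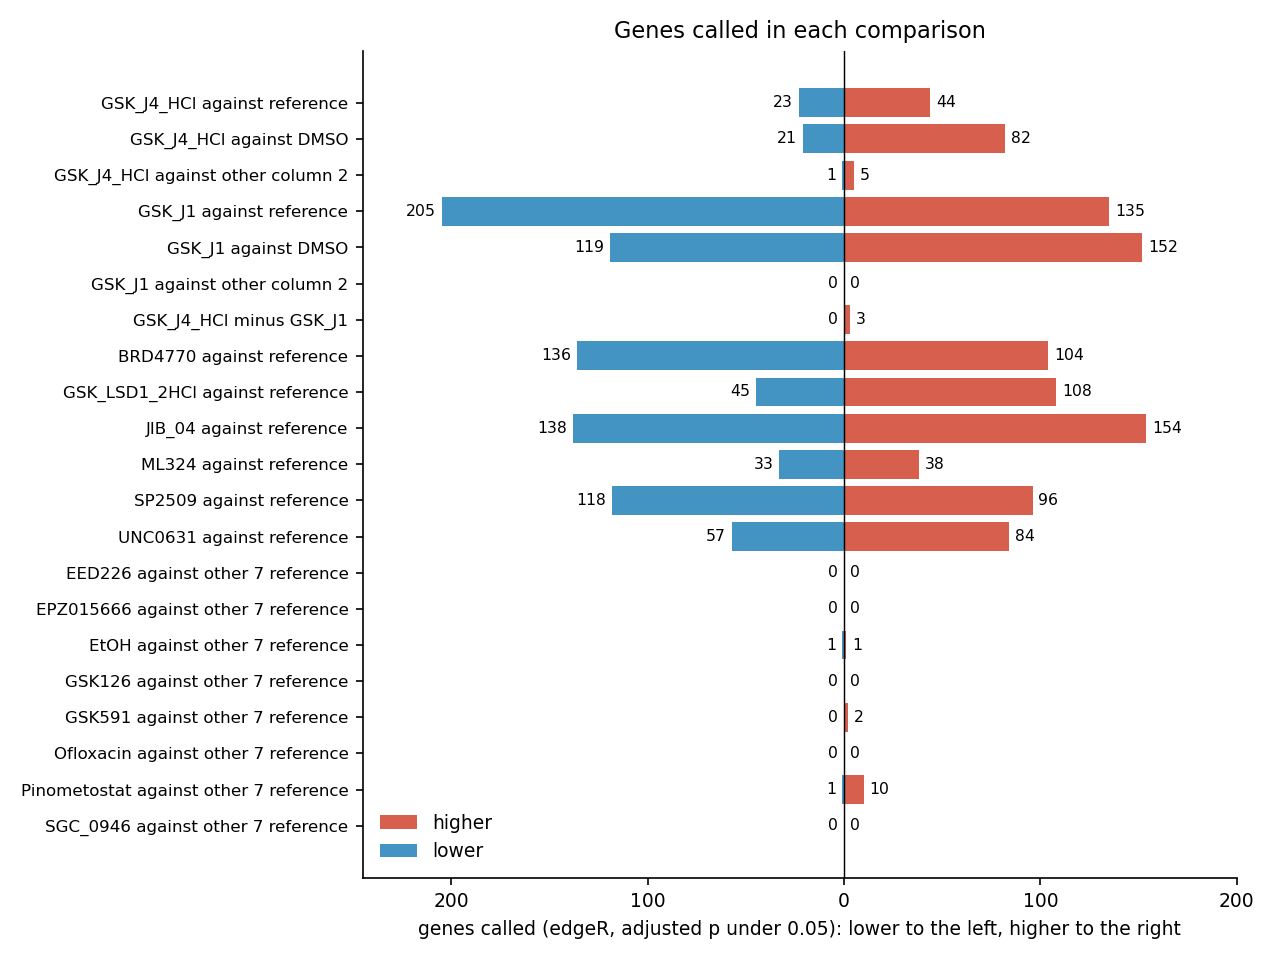
Number of genes called by edgeR at an adjusted p under 0.05 in each comparison, lower to the left of 0 and higher to the right (x axis, genes; 1 bar per comparison). GSK_J1 goes from 340 genes against the reference to 0 against the other treatments of plate column 2, and GSK_J4_HCl from 67 to 6.

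NDRG2, a member of the N-myc downstream-regulated family, gave 76.2 and 56.9 CPM in the ester wells, 31.9 and 28.9 in the acid wells and 14.2 to 41.2 in the reference. No other well of the series reached the lower of the ester values, though DMSO, at 19.2 to 55.15 CPM, came close. Against DMSO it was not called when only the wells compared and DMSO were fitted, nor when either ester well was left out. Its log2 difference from the reference was 1.24 (SE 0.25, edgeR adjusted p = 0.00155) and was lost without the plate 1 well (0.337). The ester minus acid difference of 1.11 (95% interval 0.42 to 1.8) did not pass the test (edgeR adjusted p = 0.697). CACUL1, a cullin-associated regulator of the cell cycle, had 0 reads in both ester wells, 3 and 5 in the acid wells and 148 over the reference, where every well had at least 2. With a floor of 3 reads over the 2 ester wells it was at least 3.12-fold lower than the reference (edgeR adjusted p = 0.0142). That call was lost without either ester well. Both genes were named after their values were seen.

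TFRC, the transferrin receptor, brings iron into the cell. The ester wells had 210 and 225 CPM, the acid wells 156 and 180, and the reference 81.3 to 151 (median 122). All 4 compound wells lay above the reference. The ester differed from the reference by 0.88 on the log2 scale (SE 0.16, edgeR adjusted p = 0.000514). Against the other column 2 treatments, at 133 to 278 CPM, the difference was 0.22 (SE 0.17) and the call was lost, as it was without either ester well. Ester and acid did not differ beyond their error (0.37, 95% interval -0.05 to 0.8, edgeR adjusted p = 0.939). The ferritin heavy chain gene FTH1, which stores iron, gave 1357 and 1259 CPM with the ester, 1291 and 1361 with the acid and 1470 to 1757 in the reference. Its log2 difference for the ester, -0.32 (SE 0.1), did not pass the test (adjusted p = 0.09), whereas its processed copy FTH1P5 fell by 0.74 (SE 0.14, edgeR adjusted p = 0.000657). Of 15 tested iron genes TFRC alone was called, beside 0.65% of all genes.

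Other genes called for the ester against the reference served many functions. Among those higher were the DNA clamp loader subunit RFC4 (0.78, SE 0.2), the microRNA processing factor DGCR8 (1.01, SE 0.26), the repair factor PAXX (0.79, SE 0.19), the pentose phosphate enzyme PGLS (0.74, SE 0.16), the RNA export and cap factor SRRT (0.8, SE 0.2), the ribosome biogenesis factor WDR46 (0.8, SE 0.21) and TRABD (0.86, SE 0.23). The small nucleolar RNA host genes SNHG8 (0.56, SE 0.12) and SNHG3 (0.7, SE 0.18) also rose. The lower genes included 2 subunits of ATP synthase, ATP5PD (-0.74, SE 0.17) and ATP5F1C (-0.71, SE 0.18). Thioredoxin TXN (-0.55, SE 0.15), the glutaredoxin GLRX3 (-0.69, SE 0.18), the aldehyde reductase AKR1A1 (-0.74, SE 0.19), the purine salvage enzyme APRT (-0.6, SE 0.15) and alpha globin HBA1 (-0.51, SE 0.12) fell too. So did the death effector BAK1 (-2.09, SE 0.55), which had only 2 reads in each ester well. None of these higher and lower genes was called against the other column 2 treatments, and HBA1 and APRT then changed sign (0.08 and 0.11). APRT shows the pattern: 612 and 574 CPM with the ester, 541 and 547 with the acid and 498 to 614 in the other column 2 wells, against 841 to 938 in the reference.

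For GSK_J1 340 genes (3.3% of those tested) were called against the reference, 135 higher and 205 lower. The long non-coding RNA MALAT1 rose by 1.11 on the log2 scale (SE 0.23, edgeR adjusted p = 0.00276), with 128 and 120 CPM against 41.8 to 85.8 in the reference, but the other column 2 wells reached 149 CPM. The erythroid factor GATA1 (0.47, SE 0.12) and the transcription factor RUNX1 (1.36, SE 0.36) were also higher. RUNX1 had only 14 and 10 reads in the acid wells. The m6A writer METTL3 (1.01, SE 0.25), the ion channel PIEZO1 (0.94, SE 0.2) and the amino acid transporter subunit SLC3A2 (0.69, SE 0.17) rose as well. The globins HBA1 (-0.61, SE 0.12), HBA2 (-0.63, SE 0.13) and HBE1 (-0.45, SE 0.11), the cyclin-dependent kinase subunit CKS2 (-0.72, SE 0.15) and 4 of 29 tested proteasome subunits, among them PSMA5 (-0.61, SE 0.18), were lower. All 340 calls were lost against the other column 2 treatments, and 1 and 0 genes were left when the plate 1 or the plate 2 well of the acid was taken out. With the ERCC spike-in totals as the scale the median of all genes moved from -0.003 to -0.378 and the calls turned to 8 higher and 816 lower, with HSPD1 and UROD changing sign.

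Against DMSO, which shares the compound wells with the comparisons above, GSK_J4_HCl changed 103 genes (0.999%), 82 higher and 21 lower, and GSK_J1 changed 271 (2.63%), 152 higher and 119 lower. Erythroid transcription factors were higher in both, 6 of 16 tested with the ester (median 0.73) and 8 of 16 with the acid (median 0.79). GATA1, the master regulator of red cell genes, was 1.0 higher with the ester (SE 0.12) and 1.18 with the acid (SE 0.12). NFE2, which drives globin genes, was 1.08 (SE 0.13) and 1.07 (SE 0.13) higher. The DMSO wells themselves were low in these genes. GATA1 was at 141 to 345 CPM in DMSO, 328 to 464 in the reference, 479 and 488 with the ester and 533 and 565 with the acid. NFE2 was at 79.1 to 188 CPM in DMSO, 226 to 282 in the reference, 238 and 298 with the ester and 246 and 289 with the acid. Against the reference 0 of the 16 factors was called for the ester and 2 for the acid, beside 0.65% and 3.3% of all genes. The metallothioneins did not depend on the control: the ester was 4.91 above DMSO for MT1G (SE 0.43), 3.04 for MT2A (SE 0.29) and 2.3 for MT1X (SE 0.32), while the acid was at 0.63 (95% interval -1.54 to 2.8), 0.1 (-0.97 to 1.17) and 0.02 (-0.99 to 1.02).

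The targets of the compounds were hardly read at this depth. KDM6A had 0 and 5 reads in the ester wells, 5 and 1 in the acid wells and 40 over the reference, too few to be tested. KDM6B had 0 and 2, 0 and 1, and 40 reads, and its ester minus acid difference of 1.03 had an interval of -2.45 to 4.52. EZH2, the opposing methyltransferase, gave 71.4 and 41.6 CPM with the ester, 69.4 and 68.9 with the acid and 41.1 to 65.1 in the reference. Ester and acid did not differ beyond error in it (-0.31, 95% interval -0.91 to 0.3). Of 10 tested subunits and partners of Polycomb repressive complex 2, 8 of the KDM6A-containing KMT2C/D complex and 16 other JmjC enzymes, 0 was called for either compound against the reference or between them. Over all genes the shares called were 0.65% for the ester, 3.3% for the acid and 0.0291% between them, so counts of 0 in lists of this size lie near the background. The median log2 difference of the JmjC enzymes was 0.45 for the ester and 0.08 for the acid. Of 38 HOX and other Polycomb target genes only 8 could be tested and 0 was called, and of 20 inflammatory genes from studies of KDM6B 6 could be tested and 0 was called, which is again near those shares. The change in H3K27 methylation itself was not measured in these data.

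Carboxylesterases and related hydrolases, listed as candidates for releasing the acid from the ester, were partly detected. Which of them act on GSK_J4 was not tested. CES1, CES4A, BCHE, AADAC and PON3 had 0 reads in the 4 compound wells and the 16 reference wells, while ESD (81 to 101 CPM in the compound wells), LYPLA1 (88.9 to 105 CPM), LYPLA2 (53.4 to 88.1 CPM) and APEH (54.8 to 67.6 CPM) were read in every one of them. CES2 had 63 reads over the reference and 15 over the compound wells (2.38 to 13.1 CPM). None of the 9 tested hydrolases was called in any of the 3 comparisons, where 0.65%, 3.3% and 0.0291% of all genes were called, so this count is near the background.

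Stress programmes were described through their lists. ATF4, the factor of the integrated stress response, had 66.7 and 63.5 CPM with the ester, 75.1 and 64.5 with the acid and 37.7 to 68.7 in the reference. Its log2 difference from the reference was 0.21 for the ester (95% interval -0.19 to 0.62) and that of its partner DDIT3 was 0.16 (-0.36 to 0.67). Of 27 tested ATF4 response genes, 24 of the unfolded protein response, 23 of the hypoxia response, 23 heat shock chaperones and 20 aminoacyl-tRNA synthetases, 0 was called for the ester against the reference, with list medians of -0.07 to 0.04. With 0.65% of all genes called, these counts lie near the background. MYC differed from the reference by -0.12 (95% interval -0.42 to 0.18) and fetal globin HBG1 by -0.14 (-0.3 to 0.01). GAPDH, at -0.34 (SE 0.1), missed the threshold for the ester (edgeR adjusted p = 0.0603) and passed it for the acid (-0.35, SE 0.09, adjusted p = 0.0208), which does not show that the compounds differ in it (0.01, 95% interval -0.24 to 0.25). Over the 31 lists with at least 3 tested genes, 24 had no call for the ester against the reference and 17 had none for the acid. Between ester and acid 30 of the 31 had none, and the metallothionein list was the exception, through MT1G, MT2A and MT1X.

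**Figure D4:**
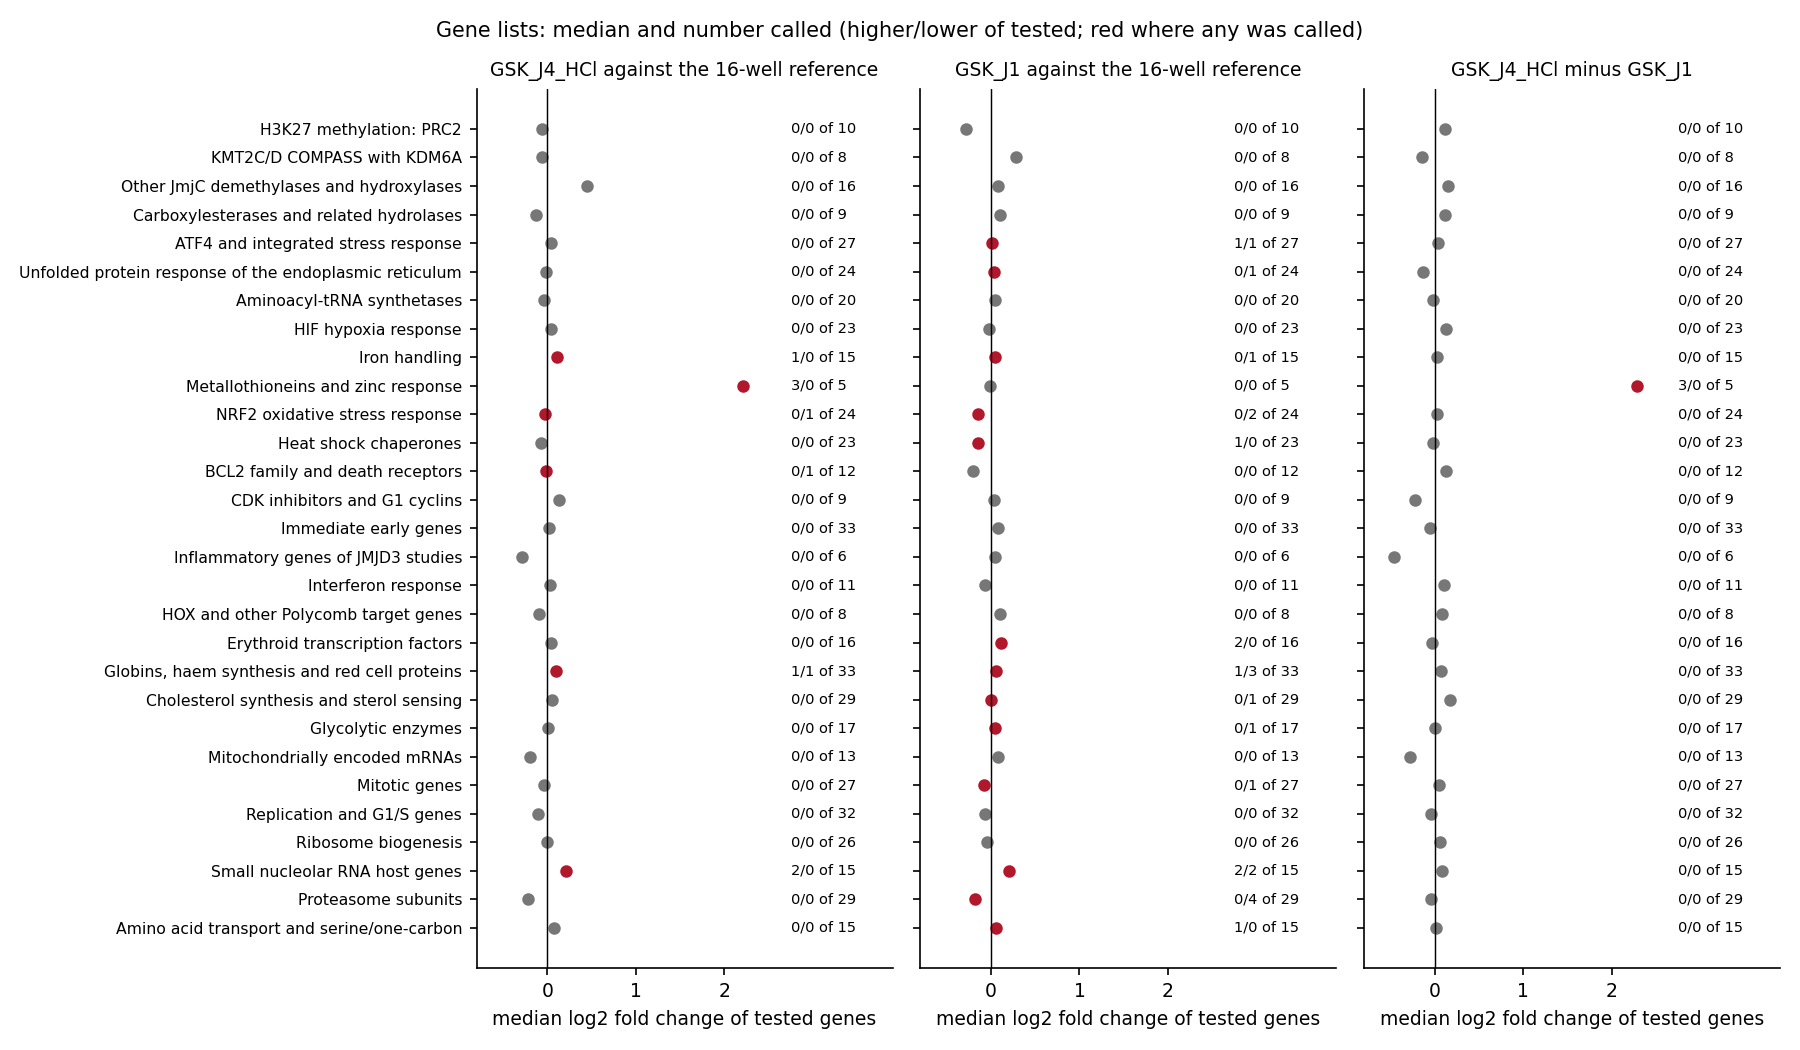
Median log2 fold change of the tested genes of each list (x axis) for the ester against the reference, the acid against the reference and ester minus acid (3 panels), with the number called higher and lower of those tested at the right; 1 point per list, red where any gene was called. The metallothionein list lies at 2.22 and 2.28 in the first and last panel, which are the MT1X values. The other lists lie within 0.5 of 0.

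How far the absence of other differences between ester and acid can be read is set by depth. The 95% interval of the log2 difference had a median half-width of 0.98 over all genes, and for 34% of genes the whole interval lay inside 1 log2 unit on either side of 0. For the other genes the interval reached past 1 log2 unit, so similar action of ester and acid is not shown.

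**Figure D5:**
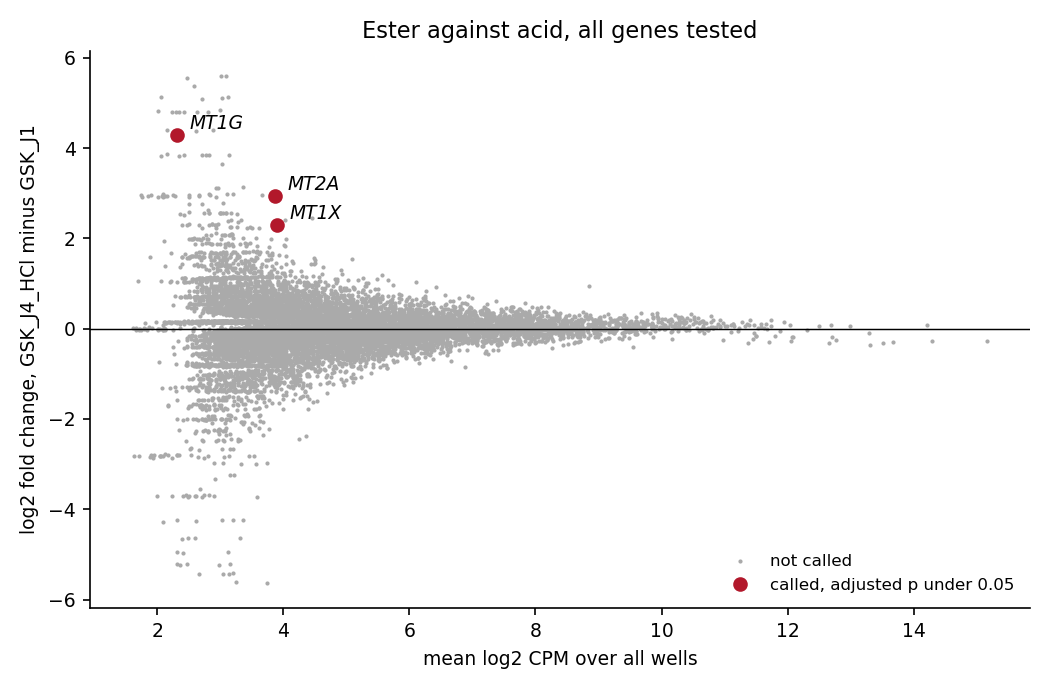
Log2 fold change of GSK_J4_HCl minus GSK_J1 (y axis) against the mean log2 CPM over all wells (x axis) for 10312 genes; grey points are not called and red points are called by edgeR at an adjusted p under 0.05. MT1G, MT2A and MT1X, at 4.28, 2.94 and 2.28, are the 3 called genes, and many genes of similar size among the lowest levels are not called.

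Among the other treatments of column 2, JIB_04 and ML324 are also known inhibitors of JmjC demethylases, of other structure. Acid and ester were each compared directly with both, giving 5 pairs with ester minus acid, and p-values were adjusted over all 5; doses are not given for any of them. GSK_J4_HCl minus ML324 gave 3 genes (0.0291%), MT1G at 5.02 (SE 0.83), MT2A at 1.94 (SE 0.41) and MT1X at 3.08 (SE 0.58). GSK_J4_HCl minus JIB_04 gave 19 genes (0.184%), 11 of them after adjustment over the 5 pairs, with MT1G at 2.97 (SE 0.53), MT2A at 1.6 (SE 0.35) and MT1X at 2.14 (SE 0.44). In this pair DDIT4, a stress-induced inhibitor of mTOR, was at -3.17 (SE 0.2, edgeR adjusted p = 6.53e-31 over the pairs) and DDIT3 at -1.26 (SE 0.27, edgeR adjusted p = 0.0181), both lower with the ester. DDIT4 was at 54.8 and 59.1 CPM with the ester, 50.7 and 55.6 with the acid and 35.1 to 67.5 in the reference, so neither compound left the reference range. GSK_J1 minus JIB_04 gave 7 genes (0.0679%), DDIT4 among them at -3.28 (SE 0.2). GSK_J1 minus ML324 gave 0 genes (0%) by edgeR, with 493 at an unadjusted p under 0.05 and a median interval half-width of 0.99.

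The spike-in share gave a measure of total RNA recovered. Counts to the ERCC RNAs, added with the reverse transcription mix, were 19.2% and 17.2% of human counts with the ester, 21.9% and 26.3% with the acid, and 13.5% to 22.8% in the reference. Fewer cells and less RNA per cell cannot be told apart by it. The log2 share of the acid was 0.44 above the reference mean, with 1 of its 2 wells above all reference wells (exact permutation test, two-sided p = 0.0261, and 0.0523 after adjustment over the 2 compounds, which misses the threshold). With the plates' own reference medians subtracted both acid wells lay outside the reference range and the exact permutation p was 0.0131, the smallest the design can give. Adjusted over the 2 compounds it was 0.0261, which passes the threshold, so this call depends on taking the plate into account. That of the ester was 0.04 above (exact permutation p = 0.797). The other column 2 wells were at 19.6% to 25.8%, so the acid wells lay in or just above their range and the ester wells below it. With ERCC totals as the scale the ester minus acid median of all genes was 0.414, and MT1G (4.69), MT2A (3.35) and MT1X (2.68) were called. Relative to that median they were 4.28, 2.93 and 2.27 higher with the ester.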

How the data were processed

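K562 cells in 192 wells on 2 plates were read after 6 h. The authors deposited raw counts per gene and well, treated here as estimated counts because summary rows are fractional. The 57905 gene rows and 92 ERCC rows hold whole numbers, and the 6 summary rows were left out. bcl2fastq 2.17.1.14, FastQC 0.11.6, cutadapt 2.1, R 4.0.2 and the GRCh37 (hg19) build are named, per the submitters' processing notes; for aligner, counter and annotation: not given in the sources used here. Duplicate reads of a molecule were not collapsed here, and whether the deposited counts were already collapsed is not settled. Symbols were matched by Ensembl gene identifier, with RefSeq synonyms used only for list genes not found otherwise. Promoters came from a RefSeq table (GRCh38.p14), with no coordinates mixed between builds.

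Depth per well was 173553 to 1906446 counts and limits precision. Genes passing edgeR's filterByExpr (10312) were TMM-scaled and fitted once over all wells with edgeR 4.0.16 (quasi-likelihood) in R 4.3.3, with a term per treatment, the reference and DMSO each as 1 group, and plate as an additive block. Plate is the replicate number in the labels, so same-numbered wells share a plate. Benjamini-Hochberg adjusted p under 0.05 was a call, and intervals are 95%. CPM values are TMM-scaled. limma-voom (limma 3.58.1), DESeq2 1.42.0, other scalings, filters, left-out wells and left-out reference treatments were alternatives. The test was checked on simulated counts that held no plate column effect. For the ester against the reference it recovered 39% of 2-fold and 72% of 4-fold changes, with 9 false calls.

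Named genes were, per comparison and direction, the 10 largest called changes that shared their sign between wells and averaged 5 or more in log2 CPM, up to 4 called members of each of 33 gene lists, and 9 genes always given (KDM6A, KDM6B, EZH2, ATF4, DDIT3, MYC, GATA1, HBG1 and GAPDH). Genes from outside this rule are marked where they appear or illustrate a group already described. The compounds and lists were chosen with earlier results of these data known, so lists are described by counts and medians without a test. One marker of the K562 list is not reported here.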

Additional observations from a re-analysis of the deposited data

How the results depend on the processing

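The metallothionein differences of GSK_J4_HCl from the reference and from DMSO were called under every alternative that gave the genes an adjusted p. DESeq2 gave them none against the reference. The counts of called genes moved widely, and the cause was not tested. GSK_J4_HCl against the reference (67 genes) gave 116 with library size alone, 15 with ERCC totals, 137 without the filter, 110 with limma-voom, 181 with DESeq2, 19 with only the wells compared and DMSO, 372 without the first plate column and 6 against column 2. GSK_J1 against the reference (340) gave 824 with ERCC totals, 154 with only the wells compared and DMSO, 684 without the first plate column and 0 against column 2. GSK_J4_HCl minus GSK_J1 (3) gave 1 with DESeq2. GSK_J4_HCl against DMSO (103) gave 203 with limma-voom, 48 with fewer wells and 647 without the first plate column. GSK_J1 against DMSO (271) gave 23, 120 and 940 with ERCC totals, fewer wells and no first column. Without the plate as a replicate block the counts were 51 and 175 against the reference for ester and acid, 3 between them, and 77 and 138 against DMSO. With 1 well or 1 reference treatment left out they ranged from 6 to 85 for the ester and 0 to 397 for the acid against the reference, 0 to 3 between them, and 18 to 26 and 20 to 29 against DMSO; a lone well is then assumed to vary like the others. APRT (0.107) and HBA1 (0.078) changed sign for the ester against column 2, and HSPD1 (-0.015) and UROD (-0.085) for the acid with ERCC totals. MT1XP1, a processed copy called for the ester with 14 reads on plate 1 and 0 on plate 2, ranged from -4.037 to 3.383 against the reference and from -4.162 to 3.256 against DMSO with 1 ester well left out. The log2 ERCC share against DMSO was -0.21 for the ester and 0.19 for the acid. Of the values of called named genes under alternatives, 544 of 699 kept direction and call for the ester against the reference, 727 of 943 for the acid and 32 of 41 between them. The column 2 reference and the pairs with JIB_04 and ML324 were chosen after seeing the data.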
